A study of Mus musculus with 6 samples.

Results

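The mitosis and kinetochore genes are a list of 52 genes whose products drive entry into mitosis, build the spindle and the kinetochore, guard the metaphase checkpoint, split the chromosomes and divide the cell. Each gene was read from the highest-mean probe set that the array annotation links to that gene alone. This gave 51 of the 52 genes among the 19938 genes measured, and Ccnb1 (cyclin B1), which has no probe set linked to it alone, is not analysed here. Mean log2 signals of all 51 genes were at or above the median of all gene values (7.17) in HSC and in ProT, and those of 50 genes were in DP, the exception being Cdc25c.

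Mitosis begins when cyclin B or cyclin A bound to the kinase CDK1 is switched on by CDC25 phosphatases, with help from Polo-like and Aurora kinases. Kinetochores, protein assemblies on the centromere, then bind spindle microtubules, and the checkpoint proteins hold the cell in metaphase until every chromosome is attached. The anaphase promoting complex ends the wait by marking securin and cyclin B for destruction. Most of these genes are transcribed late in the cell cycle under MYBL2 and FOXM1 and are kept silent in resting cells by the DREAM complex. In the thymus, cells pass through rounds of division at the pro-T stage and on the way to the double positive stage, and most double positive thymocytes are small resting cells.

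The study profiled mouse cells on 6 Affymetrix arrays, with 2 arrays for each of 3 populations along T cell development. All cells descended from bone marrow transduced with NUP98-HOXB4, a fusion protein that keeps blood progenitors growing in culture, so none of the populations is free of it. HSC cells were expanded in culture with IL6 and SCF. ProT cells were grown with the Notch1 ligand DLL4 and with IL7. DP cells were double positive thymocytes that arose in a Rag2-/- mouse after injection of ProT cells; such a host makes no mature T or B cells of its own but has its own myeloid and stromal cells. HSC and ProT thus came from culture and DP from an animal, and stage and environment cannot be told apart. The sources used here do not say whether the 2 arrays of a population came from separate cultures or mice, so the p-values measure only the spread between these arrays, which may be technical. In RNA from whole populations, fewer dividing cells and less RNA per dividing cell cannot be told apart.

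Values are log2 signals, on which a difference of 1 is a 2-fold difference, and different genes' signals are not compared because each probe set has its own brightness. Marker genes followed the labels only in part. Cd4, Cd8a, Cd8b1, Rag1, Rag2 and Dntt lay between 11.19 and 13.41 in DP and between 5.10 and 7.20 in the other populations, and Cd3g and Cd3e were at 12.56 or above in ProT and DP and at 6.60 or below in HSC. Among other early T genes, Il2ra stayed at 10.94 and 11.05 and Il7r at 11.20 and 11.13 in DP. Progenitor genes were lower in DP than in both other populations, but not all separated HSC from ProT. Cd34 was at 12.77 and 12.74 in HSC and 12.62 and 12.77 in ProT. Kit was higher in ProT than in HSC (0.72 ± 0.10) and Lmo2 was lower (-2.42 ± 0.09). Markers of other cells also moved with the populations: the 6 granulocyte genes had median levels of 12.59 and 12.90 in the HSC arrays, 8.76 and 7.07 in the ProT arrays and 7.46 and 7.33 in the DP arrays, with all 6 at or above the median of all genes in HSC. The macrophage list had medians of 7.27 and 7.19 in DP, against 6.12 to 6.48 elsewhere, but its members went both ways. C1qb was at 9.56 and 9.37 in DP, against 6.03 to 6.60 in the other arrays, and C1qa, C1qc and Mertk were also higher in DP than in both other populations, whereas Adgre1 was at 7.10 and 7.13 in DP, against 11.02 and 11.18 in ProT, and Csf1r at 7.28 and 7.16 in DP, against 10.68 and 11.03 in HSC. The 5 B cell genes measured had medians of 6.56 and 6.67 in DP, against 5.05 to 5.14 elsewhere, with Cd79a 2.03 and Ms4a1 1.70 higher in DP than in HSC and Cd79b not called there. The stromal and epithelial list had medians of 7.40 and 7.40 in DP, against 6.76 to 7.39, and was mixed too: Krt8 was at 9.51 and 9.55 in DP, against 7.31 to 7.47 elsewhere, Epcam at 7.48 and 7.36 in DP, against 9.96 and 10.08 in ProT, and Col1a1 and Col1a2 were not called in any comparison. The part of such cells in the results below was not tested.

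The ProT arrays differed from each other at the mitosis genes, and 2 arrays cannot show which of them is the more typical. ProT replicate 1 was below ProT replicate 2 at 46 of the 51 genes, with a median difference of -0.34, whereas over all 19938 genes it was below at 41.6% with a median difference of 0.03. The gap reached 2-fold at 8 genes, Bub1, Cenpe, Cenpf, Cenpk, Kif18a, Mki67, Smc2 and Smc4, which is 15.7% of the mitosis genes, against 144 genes or 0.722% of all. In HSC and in DP the replicate arrays differed 2-fold at 0 of the 51 genes. Over all genes they did so at 204 (1.02%) in HSC and at 0 in DP, so these counts are near those of all genes. Cenpe, the kinetochore motor, had the widest gap, with 7.28 in ProT replicate 1 and 9.18 in ProT replicate 2. The 26 mitosis genes with the longer span in the genome had a median gap of -0.65 and the 25 with the shorter span -0.23, while among all genes at or above the median signal the gap ran from 0.10 in the fifth with the shortest span to -0.05 in the fifth with the longest. ProT replicate 1 was also the higher ProT array for all 6 granulocyte genes, among them Mpo (9.76, against 8.16 in replicate 2) and Elane (9.54, against 8.06). The part of RNA length, RNA quality or granulocytic cells in the gap was not tested. For the mitosis genes as a whole, the counts of calls that use ProT are therefore given with each ProT array left out as well, with the genes that change sides.

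**Figure D1:**
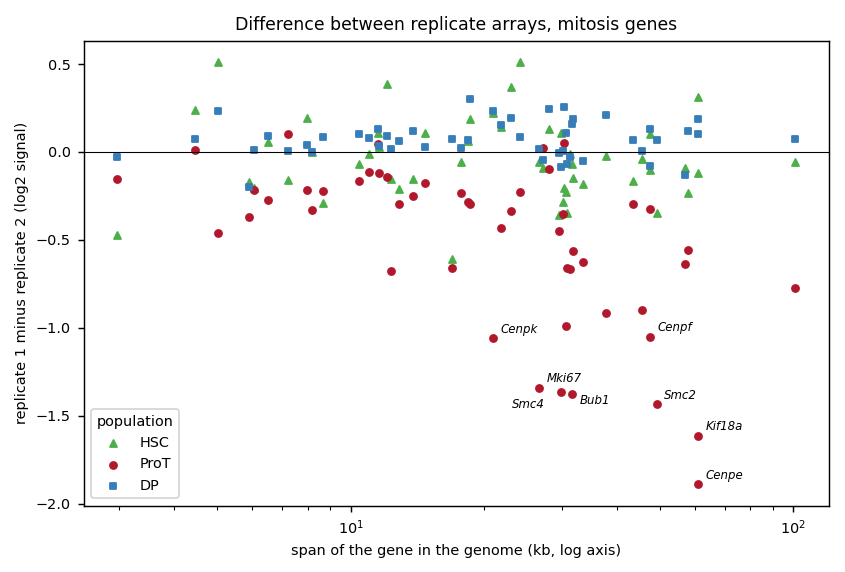
Difference between the replicate arrays of each population (replicate 1 minus replicate 2, log2 signal) for the 51 mitosis genes, against the span of each gene in the genome (kb, log axis). HSC and DP points lie on both sides of 0, within 0.61 of it, ProT points lie mostly below 0, and the 8 named genes are at least 2-fold lower in ProT replicate 1.

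From the progenitors to the double positive thymocytes, most of the mitosis genes fell. In DP, 35 of the 51 genes were lower than in HSC and 1, Cdc25b, was higher at an adjusted p below 0.05 (limma, Benjamini-Hochberg over all genes), where 18.8% of all genes were called lower and 16.0% higher. The median difference was -0.78 for the mitosis genes and 0.02 for all genes. Both DP arrays lay below both HSC arrays at 46 of the 51 genes (32.1% of all genes), both lay above at Cdc25b and Smc4, and the arrays overlapped at Bub3, Kif18a and Spc24. The fall was at least 2-fold at 19 genes (8.66% of all genes). With each of the 6 arrays left out in turn, 21 genes stayed lower every time (11.4% of all genes). The other 14, Birc5, Bub1, Ccna2, Ccnb2, Cenpk, Ect2, Kif23, Kif4, Ncapg, Ncaph, Plk4, Prc1, Ttk and Ube2c, each lost the call without DP replicate 2, and all of them but Ccnb2 and Ttk also without DP replicate 1. With 1 array left out the count ran from 21 without DP replicate 2 (11.8% of all genes) to 40 without ProT replicate 1 (18.8% of all genes), and was also 40 without ProT replicate 2. Leaving out either ProT array added Cenpe, Cenpf, Kif11, Nusap1, Smc2 and Top2a to the genes lower in DP than in HSC and removed Ube2c, at unchanged differences, since the gap between the ProT arrays no longer entered the spread.

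Fewer genes passed at either step of this course. DP was lower than ProT at 19 genes and higher at 2, Cdc25b and Smc4 (18.1% and 14.5% of all genes), with a median of -0.35 against 0.02 over all genes. The DP arrays lay below both ProT arrays at 28 genes (32.9% of all genes), and 0 of the 19 falls reached 2-fold (7.12% of all genes). ProT was lower than HSC at 6 genes and higher at 0 (6.90% and 7.85% of all genes), with a median of -0.40 against -0.01. Both ProT arrays lay below both HSC arrays at 38 genes (27.0% of all genes), and 50 of the 51 differences were negative, against 10378 of 19938 over all genes.

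Leaving out a ProT array moved these counts in opposite directions. Without ProT replicate 1, DP was lower than the remaining ProT array at 29 genes and higher at 3 (14.3% and 10.8% of all genes), with a median of -0.58, and ProT was lower than HSC at 5 (4.28% of all genes), with a median of -0.22. Birc5, Bub1, Ccnb2, Cenpk, Kif23, Kif4, Mad2l1, Ncapg, Prc1 and Ttk were lower in DP than in ProT in that fit but not with all arrays, and Cenpf was higher. Without ProT replicate 2, DP was lower at 15 genes and higher at 9 (15.7% and 12.1% of all genes), with a median of -0.19, and ProT was lower than HSC at 28 (6.91% of all genes), with a median of -0.56. The 7 genes then higher in DP than in ProT beside Cdc25b and Smc4 were Cenpe, Cenpf, Kif11, Kif18a, Mki67, Smc2 and Spc25. In these fits the lone ProT array is assumed to vary as the arrays of the other populations do. How far the fall belongs to the first or the second step thus depended on which ProT array was used. 15 genes were lower in DP than in ProT whichever ProT array was left out (12.7% of all genes), and 9 of them, Aurka, Aurkb, Cdk1, Cenpm, Espl1, Kif20a, Mybl2, Nek2 and Plk1, with any of the 6 arrays left out (9.79% of all genes). The other 10 of the 19 lost the call without DP replicate 2.

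**Figure D2:**
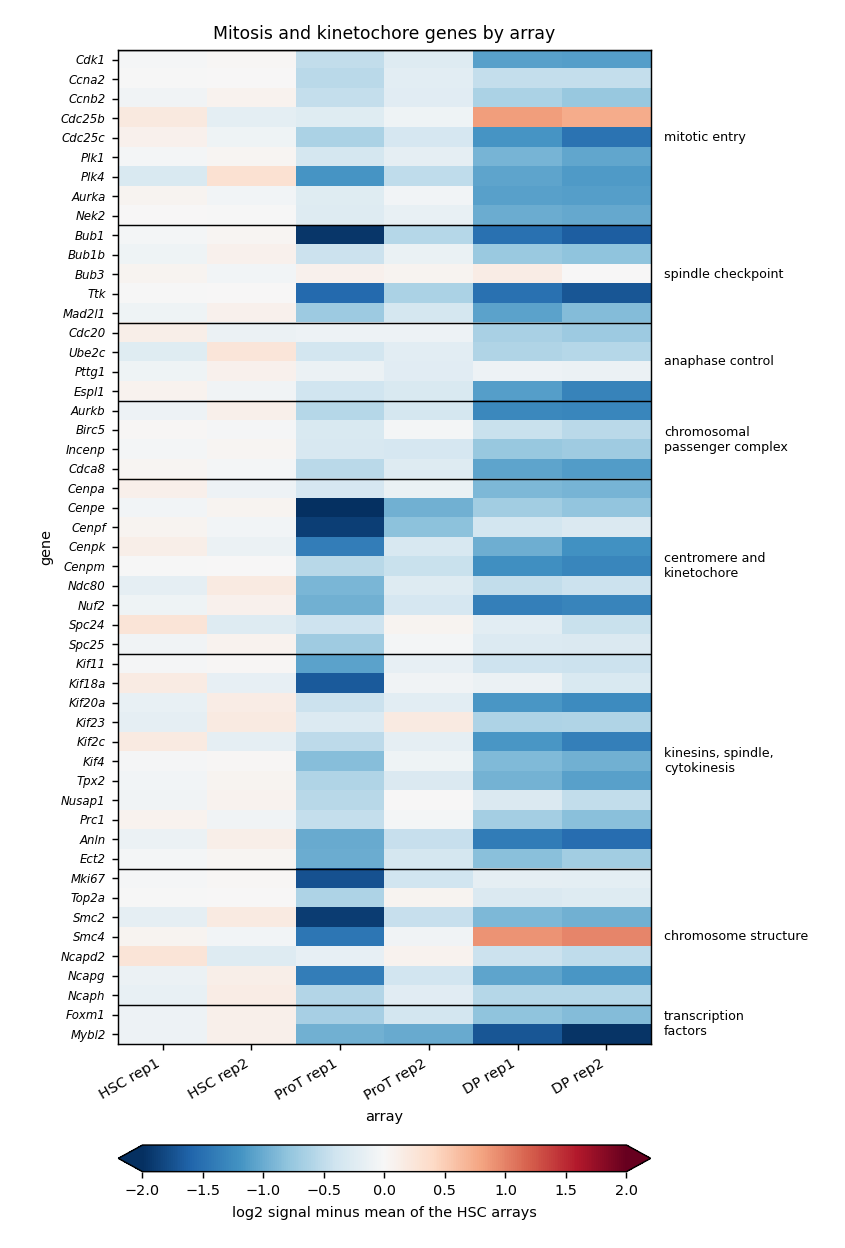
Log2 signal of the 51 mitosis genes (rows, grouped by role) in the 6 arrays (columns), minus the mean of the HSC arrays; the colour scale ends at 2 in either direction and larger differences take its end colours. Most rows turn blue in the DP columns, Cdc25b and Smc4 turn red there, and ProT replicate 1 is darker than ProT replicate 2 in many rows.

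RefSeq promoters of the genes were searched for short sequence motifs. The promoter table (GRCm38.p6, 250 bases before to 50 after the start) held 47 promoters of 42 of the 51 genes. The motif TTTGAA, the core of the cell cycle homology region (CHR) that the DREAM complex and MYBL2 complexes bind, was on either strand in 63.8% of them, against 17.9% of all 32851 promoters. CCAAT, the box bound by NF-Y, was in 74.5% against 37.4%, and a CHR together with at least 2 CCAAT boxes in 38.3% against 2.09%. E2F sites of the forms TTTGGCGC, TTTCCCGC and TTTCGCGC were in 10.6% against 1.84%. For comparison, the 30 promoters of DNA replication genes held a CHR in 13.3% and an E2F site in 40%. Of the 27 genes with a CHR, 18 were lower in DP than in HSC and 0 higher, with a median of -0.77. Of the 15 without one, 10 were lower and 1 higher, with a median of -0.97. Over all genes, 18.8% were lower and 16.0% higher. The fall was thus seen in both sets. A matched motif is a description of the letters, not evidence of binding. 16 genes had a promoter with a CHR and at least 2 CCAAT boxes. Printed below are the 4 of them with the largest absolute log2 change in DP against ProT. Cdk1 and Aurka were lower in DP than in ProT, and Mki67 and Cenpf were not called. The change of the latter genes depended on the ProT array. It was 0.20 for Mki67 and 0.50 for Cenpf without ProT replicate 1, and 1.54 and 1.55 without ProT replicate 2. Capitals mark CHR, CCAAT and E2F matches, with ATTGG as CCAAT on the other strand, and no matches overlap.
Cdk1: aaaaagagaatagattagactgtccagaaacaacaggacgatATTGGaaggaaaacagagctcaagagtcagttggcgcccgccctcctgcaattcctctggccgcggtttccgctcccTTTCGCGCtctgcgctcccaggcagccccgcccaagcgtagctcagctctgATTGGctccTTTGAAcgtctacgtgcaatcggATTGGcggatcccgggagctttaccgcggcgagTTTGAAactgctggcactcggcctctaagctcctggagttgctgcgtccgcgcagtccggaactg
Aurka: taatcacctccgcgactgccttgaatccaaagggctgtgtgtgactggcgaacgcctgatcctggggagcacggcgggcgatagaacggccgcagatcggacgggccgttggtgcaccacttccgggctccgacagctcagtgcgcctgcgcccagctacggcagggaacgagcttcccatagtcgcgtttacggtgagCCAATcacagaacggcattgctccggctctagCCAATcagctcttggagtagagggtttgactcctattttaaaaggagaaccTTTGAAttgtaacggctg
Mki67: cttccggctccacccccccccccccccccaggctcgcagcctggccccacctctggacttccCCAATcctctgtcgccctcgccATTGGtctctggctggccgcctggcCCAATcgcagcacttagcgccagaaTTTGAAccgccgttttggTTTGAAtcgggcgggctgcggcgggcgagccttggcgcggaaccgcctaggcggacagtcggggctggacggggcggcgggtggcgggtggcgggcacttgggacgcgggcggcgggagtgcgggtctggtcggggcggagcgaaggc
Cenpf: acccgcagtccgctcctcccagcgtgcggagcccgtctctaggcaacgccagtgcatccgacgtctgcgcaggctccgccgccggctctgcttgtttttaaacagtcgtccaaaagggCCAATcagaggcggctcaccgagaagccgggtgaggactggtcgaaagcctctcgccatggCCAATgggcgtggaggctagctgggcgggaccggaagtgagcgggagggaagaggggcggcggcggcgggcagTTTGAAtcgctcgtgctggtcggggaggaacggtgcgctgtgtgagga
All are on the minus strand, Cdk1 at chr10:69352863-69353162, Aurka at chr2:172370521-172370820, Mki67 at chr7:135716330-135716629 and Cenpf at chr1:189688037-189688336. Counted from the start as 0, the CHR matches begin at -71 and -15 in Cdk1, at 32 in Aurka, at -116 and -98 in Mki67 and at 2 in Cenpf.

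Among the cyclins, kinases and phosphatases of mitotic entry, 8 of 9 were lower in DP than in HSC and Cdc25b was higher. Here and for the roles below, the shares of all genes lower and higher in DP than in HSC were 18.8% and 16.0%. Cdk1, the kinase that starts mitosis, had log2 signals of 11.96 and 12.01 in HSC, 11.50 and 11.73 in ProT and 10.90 and 10.88 in DP. The DP arrays were nearly equal and well under all others, and the ProT arrays lay between. Cdk1 was 1.65-fold lower in DP than in ProT (-0.72 ± 0.10, SE; limma adjusted p = 0.00274) and 2.13-fold lower than in HSC (-1.09 ± 0.10; limma adjusted p = 0.000444), while ProT against HSC did not pass (-0.37 ± 0.10; limma adjusted p = 0.0578). Plk1, the Polo-like kinase that helps switch on CDK1 and mature the centrosomes, was at 11.78 and 11.85 in HSC, 11.47 and 11.63 in ProT and 10.88 and 10.78 in DP. Plk1 too was lower in DP than in ProT, by -0.72 ± 0.09 (limma adjusted p = 0.00216). Whether its second step was the larger was not settled. The ProT level did not pass as different from halfway between the other populations for Plk1 (limma adjusted p = 0.104) or Cdk1 (limma adjusted p = 0.224). Aurka, the centrosomal Aurora kinase, had 10.96 and 10.85 in HSC, 10.67 and 10.85 in ProT and 9.83 and 9.80 in DP. ProT replicate 2 lay just under the lower HSC array, and DP was 1.93-fold below ProT (-0.95 ± 0.09; limma adjusted p = 0.000787).

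Nek2, a centrosome kinase, and Cdc25c, a CDK1-activating phosphatase, followed the same course, with DP lower than ProT by -0.80 ± 0.08 (limma adjusted p = 0.000779) and by -0.84 ± 0.15 (limma adjusted p = 0.00803). Cdc25b, the CDC25 enzyme that acts earliest in mitotic entry, went the other way. Its signals were 9.56 and 9.18 in HSC, 9.13 and 9.28 in ProT and 10.21 and 10.12 in DP, so both DP arrays stood above all 4 others and HSC and ProT overlapped. It was 1.94-fold higher in DP than in ProT (0.96 ± 0.14; limma adjusted p = 0.00388) and 1.73-fold higher than in HSC (0.79 ± 0.14; limma adjusted p = 0.00699), and the rise over ProT held with any 1 array left out. The rise over HSC did not pass once either DP array was left out. Ccna2 (cyclin A2), Ccnb2 (cyclin B2) and Plk4, the centriole duplication kinase, were lower in DP than in HSC by -0.47 ± 0.12, -0.69 ± 0.11 and -1.09 ± 0.27, and did not pass against ProT with all arrays.

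**Figure D3:**
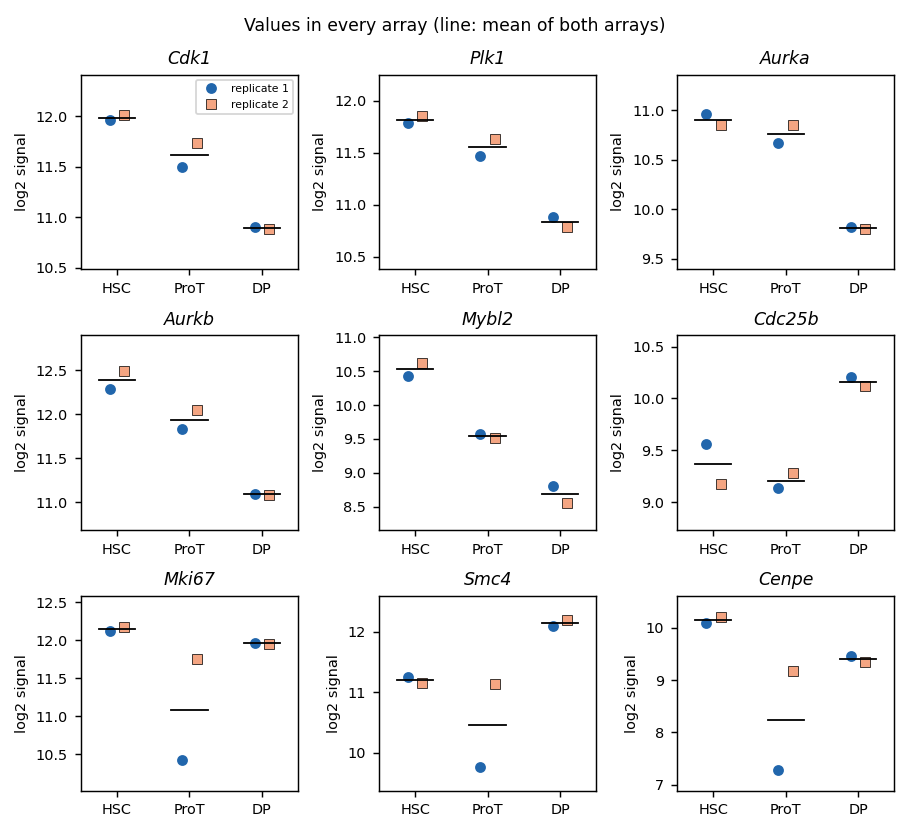
Log2 signal in each of the 6 arrays for 9 mitosis genes, with a line at the mean of both arrays of a population. Cdk1, Plk1, Aurka, Aurkb and Mybl2 are lowest in DP, Cdc25b and Smc4 are highest there, and Mki67, Smc4 and Cenpe show the gap between the ProT arrays.

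Spindle checkpoint genes fell in DP relative to HSC at 4 of 5. Ttk (MPS1), the kinase that starts checkpoint signalling, was 3.04-fold lower (-1.60 ± 0.28; limma adjusted p = 0.00678), Bub1, a kinase that docks at kinetochores, 2.96-fold (-1.56 ± 0.41; limma adjusted p = 0.0302), and Mad2l1 (MAD2), part of the inhibitor of the anaphase promoting complex, 1.97-fold (-0.97 ± 0.15; limma adjusted p = 0.00388). Bub1b (BUBR1) was lower than in HSC (-0.78 ± 0.12) and, alone among the 5 with all arrays in the fit, lower than in ProT (-0.50 ± 0.12; limma adjusted p = 0.025), a call lost without ProT replicate 2 or either DP array. Without ProT replicate 1, Bub1 (-0.998 ± 0.112; limma adjusted p = 0.00407), Ttk (-0.97 ± 0.12; limma adjusted p = 0.00558) and Mad2l1 (-0.62 ± 0.14; limma adjusted p = 0.0306) were lower in DP than in ProT as well, and without ProT replicate 2 none of the 5 was. Bub1 was at 9.71 and 11.08 in the ProT arrays, against 11.61 and 11.68 in HSC, and ProT replicate 1 lay under both DP arrays (10.16 and 10.00) while ProT replicate 2 lay above them. Bub3, the adaptor that carries BUB1 and BUBR1 to kinetochores, differed from HSC by 0.08 in DP (95% interval -0.13 to 0.29) and its 6 values lay between 11.28 and 11.48.

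Of the anaphase control genes, Cdc20, the activator of the anaphase promoting complex, Ube2c, its ubiquitin-conjugating enzyme, and Espl1 (separase), the protease that cuts cohesin, were lower in DP than in HSC. Espl1 changed most, with 9.67 and 9.54 in HSC, 9.21 and 9.31 in ProT and 8.51 and 8.27 in DP. Its populations do not overlap, and DP was 1.83-fold below ProT (-0.87 ± 0.11; limma adjusted p = 0.00205). Cdc20 was at 10.58 and 10.35 in HSC and 10.37 and 10.36 in ProT, which overlap, and at 9.81 and 9.74 in DP (-0.58 ± 0.10 against ProT; limma adjusted p = 0.00656). Pttg1 (securin), the separase inhibitor, lay between 9.46 and 9.77 in all arrays and did not pass in any comparison (-0.11 ± 0.09 in DP against HSC).

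All 4 genes of the chromosomal passenger complex, which corrects faulty kinetochore attachments and later guides cytokinesis, were lower in DP than in HSC. The complex's kinase Aurkb had 12.29 and 12.50 in HSC, 11.83 and 12.05 in ProT and 11.10 and 11.09 in DP, 3 groups without overlap. It was lower at both steps, by -0.46 ± 0.11 in ProT against HSC (limma adjusted p = 0.046) and by -0.85 ± 0.11 in DP against ProT (limma adjusted p = 0.00245), although the first was lost without ProT replicate 1 (-0.35 ± 0.12; limma adjusted p = 0.19), HSC replicate 2 or either DP array. Incenp, the scaffold of the complex, was at 10.14 and 10.23 in HSC, 9.86 and 9.84 in ProT and 9.43 and 9.47 in DP. It was also lower at both steps (-0.33 ± 0.07, limma adjusted p = 0.0356, and -0.40 ± 0.07, limma adjusted p = 0.0092), the first lost without HSC replicate 2 or any ProT or DP array, the second without either DP array. Birc5 (survivin), which tethers the complex to chromatin, was at 9.45 and 9.39 in HSC, 9.12 and 9.39 in ProT and 8.97 and 8.88 in DP. DP lay under every other array for Birc5 and was lower than HSC (-0.50 ± 0.11; limma adjusted p = 0.016), but the difference from ProT passed only without ProT replicate 1 (-0.46 ± 0.10; limma adjusted p = 0.0277), not with all arrays (-0.32 ± 0.11; limma adjusted p = 0.0724). Cdca8 (borealin) was lower in DP than in ProT (-0.69 ± 0.11; limma adjusted p = 0.00531).

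Of the centromere and kinetochore genes, 4 of 9 were lower in DP than in HSC and the other 5 were not called. Cenpm, a protein of the inner kinetochore, gave the cleanest course, with 10.78 and 10.79 in HSC, 10.23 and 10.34 in ProT and 9.56 and 9.48 in DP. Its populations stood apart, and it was lower at both steps (-0.50 ± 0.08, limma adjusted p = 0.0101, and -0.76 ± 0.08, limma adjusted p = 0.00104), the first with an adjusted p of 0.0547 in limma without ProT replicate 1. Cenpa, the histone H3 variant that marks the centromere, was lower in DP than in ProT (-0.68 ± 0.11; limma adjusted p = 0.0053). Cenpk, another inner kinetochore protein, was lower than in HSC (-1.10 ± 0.33; limma adjusted p = 0.0489), a call lost when either array of HSC or of DP was left out. Of the NDC80 complex, which grips the microtubule end, Nuf2 was lower in DP than in HSC (-1.34 ± 0.20; limma adjusted p = 0.00357). The other three subunits did not pass, at -0.46 ± 0.23 for Ndc80, -0.33 ± 0.22 for Spc24 and -0.28 ± 0.21 for Spc25.

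Cenpf, a large protein of the outer kinetochore, had 9.37 and 9.26 in HSC, 7.44 and 8.49 in ProT and 8.94 and 9.02 in DP. Both ProT arrays were the lowest, and DP lay a little under HSC. Cenpf was 2.55-fold lower in ProT than in HSC (-1.35 ± 0.32; limma adjusted p = 0.0417), and -0.83 ± 0.10 without ProT replicate 1 (limma adjusted p = 0.011), but the call was lost without any HSC or DP array. DP was 1.02 ± 0.32 above ProT (limma adjusted p = 0.0563), and the difference passed without ProT replicate 1 (0.50 ± 0.10; limma adjusted p = 0.0256) and without ProT replicate 2 (1.55 ± 0.10; limma adjusted p = 0.000806). Cenpe had 10.08 and 10.20 in HSC, 7.28 and 9.18 in ProT and 9.45 and 9.35 in DP, and none of its comparisons passed with all arrays (1.17 ± 0.56 in DP against ProT, limma adjusted p = 0.18). Without ProT replicate 1 it was lower in ProT than in HSC (-0.97 ± 0.11; limma adjusted p = 0.00806) and did not pass in DP against ProT (0.23 ± 0.11; limma adjusted p = 0.221). Without ProT replicate 2 it was lower in ProT than in HSC by -2.86 ± 0.11 (limma adjusted p = 0.000283) and higher in DP than in ProT by 2.12 ± 0.11 (limma adjusted p = 0.000431).

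Kinesins, spindle and cytokinesis genes were lower in DP than in HSC at 8 of 11. Anln (anillin), a scaffold of the contractile ring, fell 2.75-fold (-1.46 ± 0.19; limma adjusted p = 0.00211), Kif20a, a kinesin of the central spindle, 2.31-fold (-1.21 ± 0.13; limma adjusted p = 0.000873), and Tpx2, the activator of Aurora A on microtubules, 2.02-fold (-1.01 ± 0.13; limma adjusted p = 0.00166). Kif2c (MCAK), which takes microtubules apart, had 10.61 and 10.24 in HSC, 9.91 and 10.25 in ProT and 9.26 and 9.07 in DP. HSC and ProT overlapped and DP lay below both, 1.88-fold under ProT (-0.91 ± 0.17; limma adjusted p = 0.0096), a call lost without either DP array. Prc1, which bundles midzone microtubules, Ect2, which activates RhoA for the contractile ring, Kif23 and Kif4 were lower than in HSC by -0.76, -0.77, -0.61 and -0.92. None of them passed against ProT with all arrays, and Prc1, Kif23 and Kif4 did without ProT replicate 1.

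Kif11, Kif18a and Nusap1 passed in none of the 3 comparisons with all arrays in the fit. Kif11 (EG5), the motor that pushes spindle poles apart, was at 11.73 and 11.77 in HSC, 10.68 and 11.58 in ProT and 11.33 and 11.32 in DP. Kif18a, which dampens chromosome movement, was at 8.95 and 8.63 in HSC, 7.11 and 8.72 in ProT and 8.68 and 8.49 in DP. For both, ProT replicate 1 was the low array and ProT replicate 2 lay within 0.3 of DP. Kif11 differed by 0.20 in DP against ProT (95% interval -0.47 to 0.87) and Kif18a by 0.67 (95% interval -0.54 to 1.87). Without ProT replicate 2 both were lower in ProT than in HSC and higher in DP than in ProT (0.65 ± 0.09 for Kif11, limma adjusted p = 0.00676, and 1.47 ± 0.17 for Kif18a, limma adjusted p = 0.00357), and without ProT replicate 1 neither passed in these comparisons.

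Of the 7 chromosome structure genes, 2 were lower in DP than in HSC (28.6%, against 18.8% of all genes). In DP against ProT, 0 were lower (18.1% of all genes). With only 7 genes, these counts are near those of all genes. Mki67 (Ki-67), which coats mitotic chromosomes and serves as a marker of cycling cells, had 12.13 and 12.18 in HSC, 10.42 and 11.76 in ProT and 11.97 and 11.95 in DP. DP was just under HSC and above both ProT arrays, and no comparison passed with all arrays (-0.19 ± 0.40 in DP against HSC, limma adjusted p = 0.769, 95% interval -1.18 to 0.79). The spread is estimated over all 6 arrays, so the gap between the ProT arrays enters this interval too. Without ProT replicate 2, Mki67 was higher in DP than in ProT (1.54 ± 0.09; limma adjusted p = 0.000627), and without ProT replicate 1 it did not pass (0.20 ± 0.09; limma adjusted p = 0.204). Top2a, the topoisomerase that untangles sister chromatids, was at 11.65 and 11.66 in HSC, 11.04 and 11.71 in ProT and 11.36 and 11.39 in DP (-0.28 ± 0.21 in DP against HSC, limma adjusted p = 0.382), and was called lower than in HSC once either ProT array was left out. A second, dim Top2a probe set read 4.50 to 4.55 in HSC, 4.42 to 4.45 in ProT and 4.91 to 4.93 in DP, and was not used.

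Smc4 and Smc2 are the paired ATPases at the core of condensin, which compacts mitotic chromosomes. Smc4 had 11.26 and 11.15 in HSC, 9.77 and 11.13 in ProT and 12.10 and 12.19 in DP, so that both DP arrays exceeded all others. It was 3.24-fold higher in DP than in ProT (1.70 ± 0.41; limma adjusted p = 0.024), and 1.01 ± 0.11 higher without ProT replicate 1 (limma adjusted p = 0.00326). The rise was lost when either DP array was left out, and the difference from HSC did not pass (0.94 ± 0.41; limma adjusted p = 0.138) unless either ProT array was left out. Smc2 had 10.49 and 10.83 in HSC, 8.76 and 10.20 in ProT and 9.76 and 9.69 in DP, with DP below both HSC arrays (-0.93 ± 0.44; limma adjusted p = 0.167) and called lower once either ProT array was left out. Against ProT, Smc2 in DP was higher without ProT replicate 2 (0.96 ± 0.17; limma adjusted p = 0.0125) and did not pass without ProT replicate 1 (-0.47 ± 0.17; limma adjusted p = 0.111). The difference between Smc4 and Smc2 was not tested. Ncapg and Ncaph, regulatory subunits of condensin I, were lower in DP than in HSC (-1.11 ± 0.31 and -0.57 ± 0.15), while Ncapd2 was -0.47 ± 0.18 with an adjusted p of 0.0996 in limma.

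Both transcription factors that drive the mitotic genes were lower in ProT than in HSC and lower in DP than in HSC. Mybl2 (B-MYB) had 10.42 and 10.63 in HSC, 9.57 and 9.52 in ProT and 8.81 and 8.56 in DP, with wide gaps between populations. It was 3.58-fold lower in DP than in HSC (-1.84 ± 0.12; limma adjusted p = 0.000131), the largest fall among the 51 genes, made of -0.98 ± 0.12 in ProT against HSC (limma adjusted p = 0.00376) and -0.86 ± 0.12 in DP against ProT (limma adjusted p = 0.00293). Its fall in ProT against HSC was the only one of the 6 that stayed called with each of the 6 arrays left out. Foxm1 had 10.41 and 10.62 in HSC, 9.85 and 10.15 in ProT and 9.72 and 9.66 in DP. Foxm1 was lower in ProT than in HSC (-0.52 ± 0.13; limma adjusted p = 0.0488, lost without HSC replicate 2, ProT replicate 1 or either DP array) and in DP than in HSC (-0.83 ± 0.13; limma adjusted p = 0.00391), and DP against ProT did not pass (-0.31 ± 0.13; limma adjusted p = 0.125).

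**Figure D4:**
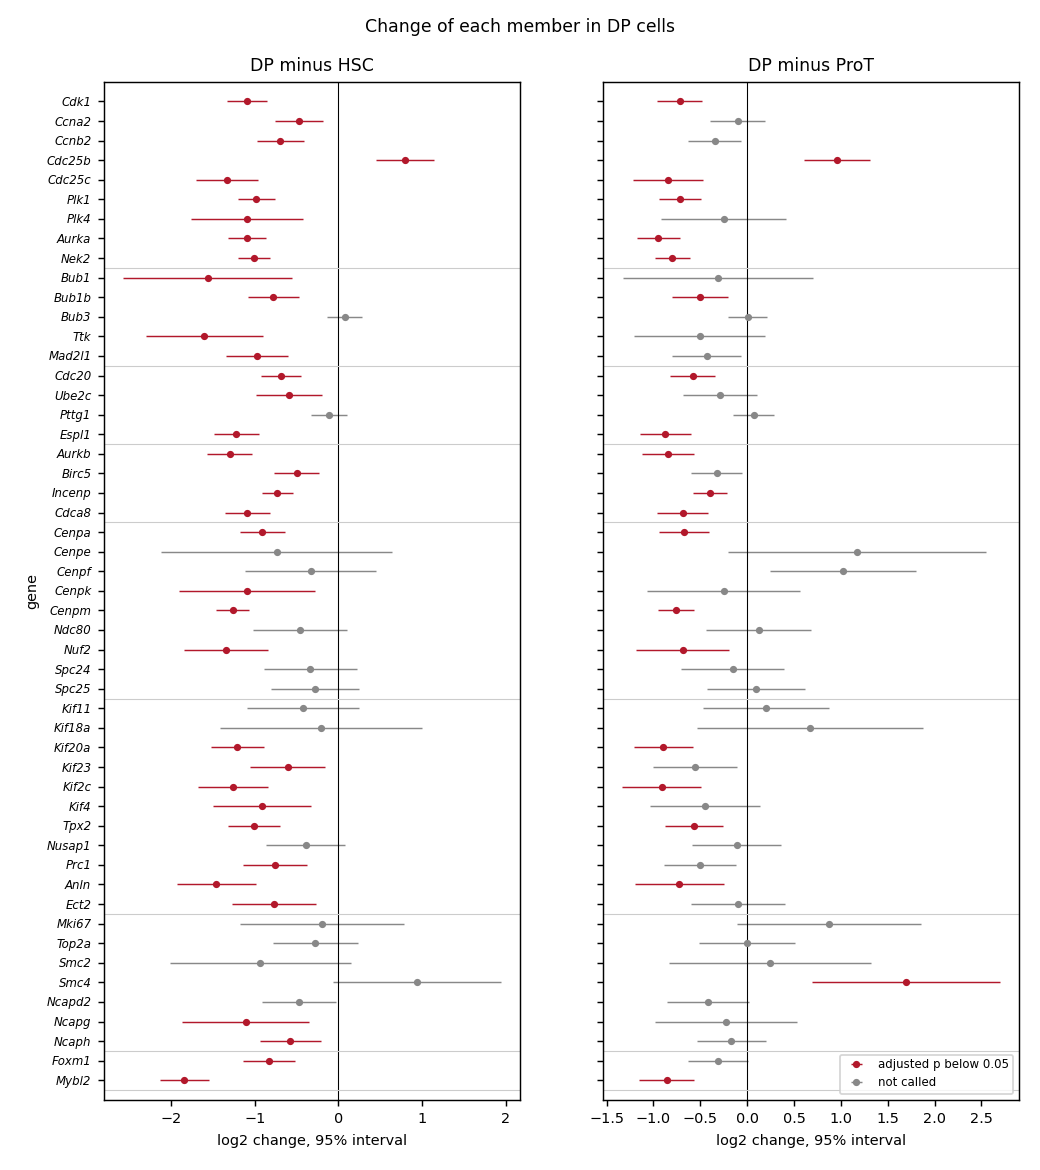
Log2 change of each mitosis gene in DP against HSC (left) and in DP against ProT (right), with 95% intervals from limma; red points have an adjusted p below 0.05. Against HSC, 35 genes are red to the left of 0 and Cdc25b to the right; against ProT, 19 are red to the left and Cdc25b and Smc4 to the right.

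Ranked by population means, 38 of the 51 genes ran HSC, ProT, DP from high to low. In 10 the lowest mean was in ProT with HSC highest, in Cdc25b and Smc4 DP was highest and ProT lowest, and in Bub3 DP was highest and HSC lowest. These orders use means of 2 arrays, and 14 genes passed in neither comparison of DP. Against the midpoint of HSC and DP, ProT was higher for Aurka (0.40 ± 0.08; limma adjusted p = 0.0183) and Nek2 (0.30 ± 0.07; limma adjusted p = 0.0279) and lower for Cdc25b (-0.56 ± 0.12; limma adjusted p = 0.0256) and Cenpf (-1.19 ± 0.28; limma adjusted p = 0.0311), where 11.8% of all genes were higher and 9.17% lower. All 4 calls were lost without either DP array. Without ProT replicate 1 the count was 1 higher and 3 lower (7.16% and 4.74% of all genes), and without ProT replicate 2 it was 0 higher and 16 lower (9.41% and 7.85% of all genes).

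Other cell cycle lists, also written with earlier results of these data known, were read beside the mitosis genes. Of 27 other spindle and cytokinesis genes, 22 were lower in DP than in HSC and 0 higher (18.8% and 16.0% of all genes), with a median of -0.94. Psrc1 (-1.30 ± 0.11; limma adjusted p = 0.00056), Cep55, which acts in abscission (-1.27 ± 0.22; limma adjusted p = 0.00688), and Cit (citron kinase, -0.87 ± 0.10; limma adjusted p = 0.00134) fell in DP against ProT. Depdc1a (0.89 ± 0.56) and Kif20b (0.62 ± 0.44) did not pass, and in both ProT replicate 1 was the low array (6.75 against 8.63, and 6.85 against 8.32, in ProT replicate 2).

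Of 30 other kinetochore and checkpoint genes, 16 were lower in DP than in HSC and 2 higher (18.8% and 16.0% of all genes), with a median of -0.58. Cenph, of the inner kinetochore, had 9.40 and 9.34 in HSC, 8.70 and 9.02 in ProT and 7.20 and 7.19 in DP (-1.67 ± 0.12 in DP against ProT; limma adjusted p = 0.000251), and Oip5, which helps load CENP-A, fell by -1.07 ± 0.12 (limma adjusted p = 0.00152). Mad1l1 (MAD1), the partner that brings MAD2 to kinetochores, moved the other way, with 9.91 and 9.67 in HSC, 9.58 and 9.53 in ProT and 11.17 and 11.20 in DP (1.63 ± 0.10 against ProT; limma adjusted p = 0.000137). Its partner Mad2l1, described above, was lower in DP than in HSC. Knl1 (1.03 ± 0.46) and Cenpn (-0.63 ± 0.20) did not pass in DP against ProT.

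Of the anaphase promoting complex list, 2 of 15 genes were lower in DP than in HSC and 0 higher, beside 18.8% and 16.0% of all genes. Against ProT, Fzr1 (CDH1), its late activator, and Anapc11, its RING subunit, were lower by -0.59 ± 0.14 (limma adjusted p = 0.02) and -0.48 ± 0.11 (limma adjusted p = 0.0175). Anapc13 (-0.63 ± 0.26) and Anapc1 (-0.24 ± 0.10) did not pass. Condensin II, the nuclear form of condensin, had 0 of 3 genes called in DP against either population, at 0.39 ± 0.12 for Ncapd3 and -0.34 ± 0.15 for Ncaph2 against ProT.

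Cohesin genes, whose ring holds sister chromatids together and folds chromatin in resting cells too, ran mostly upward. In DP, 8 of 13 were higher than in ProT and 1 lower (14.5% and 18.1% of all genes), with a median of 0.85. Against HSC, 5 were higher and 1 lower in DP (16.0% and 18.8% of all genes). Nipbl, the loader, had 10.25 and 9.64 in HSC, 8.55 and 9.85 in ProT and 11.37 and 11.38 in DP (2.17 ± 0.43 against ProT; limma adjusted p = 0.0115). Esco1, an acetyltransferase, and Stag2, a ring subunit, rose by 1.93 ± 0.38 (limma adjusted p = 0.0114) and 1.37 ± 0.37 (limma adjusted p = 0.0359), whereas Smc3 (0.85 ± 0.39) and Esco2 (0.78 ± 0.47) did not pass. ProT replicate 1 was more than 2-fold below replicate 2 at 5 of the 13, and without it 7 were higher and 1 lower, with a median of 0.47, while without ProT replicate 2 the counts were 10 and 1, with a median of 1.23.

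The list of DREAM complex genes and E2F factors had 9 of 18 lower and 5 higher in DP than in HSC (18.8% and 16.0% of all genes). E2f2 rose by 1.53 ± 0.09 in DP against ProT (limma adjusted p = 0.000129), and E2f6 and E2f3 fell by -1.43 ± 0.12 (limma adjusted p = 0.000433) and -1.40 ± 0.13 (limma adjusted p = 0.000607). E2f5 (-0.46 ± 0.16) and E2f7 (-0.22 ± 0.13) did not pass. DNA replication genes fell together, with 30 of 33 lower in DP than in HSC and 25 lower in DP than in ProT (18.8% and 18.1% of all genes). In ProT, 12 were above the midpoint (11.8% of all genes). Their median in DP against ProT was -0.60, and -0.65 without ProT replicate 1 and -0.59 without ProT replicate 2. Mcm3, of the replicative helicase, Pole, the leading-strand polymerase, and Orc1, of the origin recognition complex, fell by -1.37 ± 0.10 (limma adjusted p = 0.000333), -1.14 ± 0.11 (limma adjusted p = 0.000715) and -1.11 ± 0.11 (limma adjusted p = 0.000917) in DP against ProT. Ccne2 (0.46 ± 0.18) and the sliding clamp Pcna (0.36 ± 0.12) did not pass.

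G1 cyclins and inhibitors were mixed, with 6 of 13 higher and 3 lower in DP than in HSC (16.0% and 18.8% of all genes). The antiproliferative gene Btg2 had 9.07 and 9.07 in HSC, 10.66 and 11.22 in ProT and 12.55 and 12.54 in DP (1.60 ± 0.18 in DP against ProT; limma adjusted p = 0.0013). Ccnd2 (cyclin D2) fell by -1.48 ± 0.15 (limma adjusted p = 0.000983) and Ccnd1 (cyclin D1) by -1.17 ± 0.08 (limma adjusted p = 0.000269), while Cdkn1c (0.23 ± 0.08) and Cdkn2a (0.05 ± 0.08) did not pass. The comparisons share arrays, so counts in one are not independent of counts in another.

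**Figure D5:**
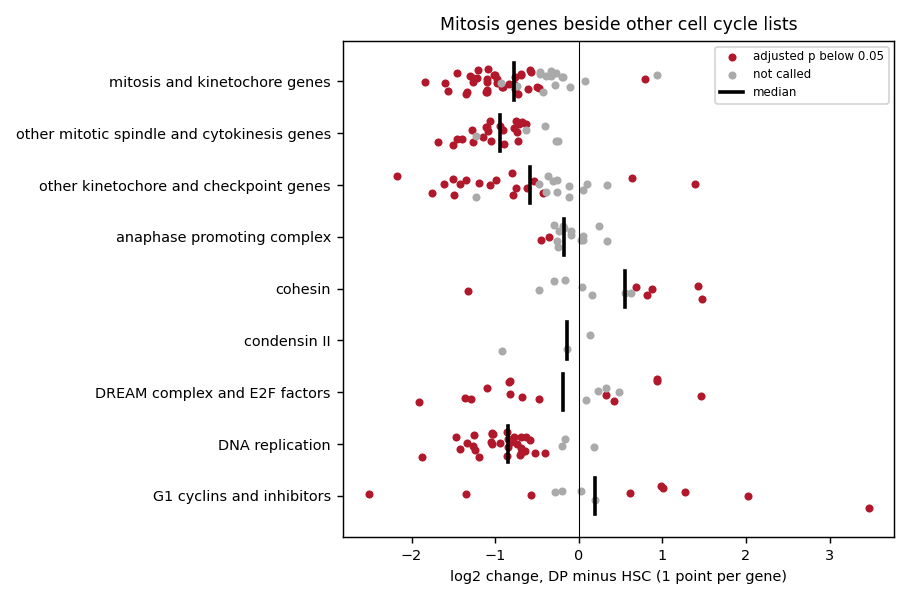
Log2 change in DP against HSC for each gene of the mitosis list and of 8 other cell cycle lists (1 point per gene), with red points at an adjusted p below 0.05 and black bars at the medians. The mitosis, spindle, kinetochore and DNA replication lists lie mostly to the left of 0, and the cohesin list lies mostly to the right.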

How the data were processed

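Total RNA of 6 mouse samples was hybridized to Affymetrix arrays, 2 arrays for each of HSC, ProT and DP. The authors deposited 1 table of log2 signals for 35556 probe sets, made with RMA and Partek per the submitters' processing notes; the sources used here give neither versions nor settings. The 21789 probe sets linked to exactly 1 gene covered 19938 genes, and the highest-mean probe set stood for each gene. No filter on signal was applied. One linear model with a mean for each population was fitted to all 6 arrays in limma 3.58.1 (R 4.3.3) with eBayes (residual degrees of freedom 3, prior 2.83). Calls required p below 0.05 after Benjamini-Hochberg adjustment across the 19938 genes. Errors are moderated SEs. Tables and figures used Python 3.11.15, pandas 2.3.3, numpy 2.4.6 and matplotlib 3.10.9, and the scripts were tested on simulated data.

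The mitosis genes and all other lists were chosen with earlier results of these data known. Listed genes without a probe set of their own are not analysed here. Values of every array were written out for Mki67, Top2a, Cdk1, Aurkb, Plk1, Birc5 and Foxm1, for the 6 genes with the largest change in DP against ProT, for every gene called in ProT against HSC, and for up to 8 genes highest in DP against ProT among those not called lower; others (Bub1, Espl1, Cdc20 and some genes of other lists) were added after their values were seen. From each other list up to 3 called and 2 uncalled genes were named by the size of that change. Replicate numbers were not used as a block: the labels do not say what they pair, and deviations of same-numbered arrays correlated at 0.06 (HSC and ProT), -0.02 (HSC and DP) and -0.04 (ProT and DP). Alternatives were other normalizations and centring, a filter on dim genes, other rules for probe sets and variance, fits of fewer arrays, a replicate block, a 2-fold minimum and leaving out each array. With 2 arrays a population, the number of arrays limits the precision. Promoter sequences came from RefSeq (GRCm38.p6).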

Additional observations from a re-analysis of the deposited data

How the results depend on the processing

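The fall in DP against HSC kept its direction and a count of 30 to 40 lower genes, against 35, under every other normalization, filter, probe set rule, variance prior and choice of arrays in the fit, apart from leaving out single arrays (21 to 40 lower, 0 to 2 higher, median -0.83 to -0.76) and a 2-fold minimum (19 lower, 0 higher); fitting only HSC and DP gave 2 higher. In DP against ProT a 2-fold minimum left 0 lower and 1 higher, and leaving out single arrays gave 9 to 29 lower, 1 to 9 higher and medians of -0.58 to -0.19. In ProT against HSC the 6 lower genes became 3 with cyclic loess, 12 with median centring, 2 when only ProT and HSC were fitted and 1 with a 2-fold minimum, and 2 to 28 when single arrays were left out (median -0.56 to -0.22). Against the midpoint the filter on dim genes gave 4 lower, median centring and the trended robust prior 1 higher each, a 2-fold minimum 1 lower and 0 higher, and leaving out single arrays 0 to 16 lower, 0 to 3 higher and medians of -0.24 to 0.19. With the replicate block, 34 genes were lower in DP than in HSC, 21 lower in DP than in ProT, 6 lower in ProT than in HSC and 1 above the midpoint, while the numbers are not known to pair the arrays. Median centring moved the median of all genes in DP against ProT to 0.14, against 0.02, and the split of all calls to 4680 higher and 2967 lower, against 2899 and 3607; the mitosis genes then had a median of -0.22, with 16 lower and 3 higher. Against the midpoint it moved the median of all genes to -0.11, against -0.02, and the calls to 1875 higher and 2969 lower, against 2359 and 1828. No result changed to a call in the opposite direction. The cause of these shifts was not tested. Counts over all genes also moved when single arrays were left out, so a changed count is not by itself particular to the mitosis genes. In those fits the median of all genes ran from -0.02 to 0.01 in ProT against HSC. It ran from 0.00 to 0.03 in DP against ProT and in DP against HSC. Only 2 arrays a population, which differ from each other at the mitosis genes in ProT, limit every statement on ProT.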
